A study of Homo sapiens with 4 samples.

Results

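The genes described here are 8 genes for proteins that make superoxide, or that remove superoxide or hydrogen peroxide. CYBB, CYBA, NCF1, NCF4 and RAC2 encode subunits of the phagocyte NADPH oxidase, SOD1 and SOD2 encode superoxide dismutases, and CAT encodes catalase. They were taken by symbol, from the array probe sets that the platform's annotation lists for only 1 gene. All 8 were found, on 16 probe sets, of 19776 genes and 54675 probe sets in all. A further 5 probe sets are listed for a member together with another gene, and are given below as probe sets. Transcripts were measured with the U133 Plus 2.0 GeneChip in sublines of THP-1, a human monocytic leukemia line, made to express Siglec-14, which recognizes bacteria and activates myeloid cells, or its paired inhibitory receptor Siglec-5. Each subline was kept for 6 h with heat-killed nontypeable Haemophilus influenzae (NTHi) strain 2019, at 100 bacteria per cell, or without it, in serum-free medium. The 4 samples were Siglec-14,NTHi[+], Siglec-14,NTHi[-], Siglec-5,NTHi[+] and Siglec-5,NTHi[-], 1 array each, so that no ratio of a pair of arrays has a replicate check. Each subline is 1 line carrying 1 introduced receptor, and a receptor effect cannot be told apart from other differences that the sublines may have.

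The phagocyte oxidase moves electrons from NADPH across a membrane to oxygen and releases superoxide. Its catalytic core is gp91phox (CYBB) bound to p22phox (CYBA). In resting cells p47phox (NCF1), p40phox (NCF4) and a further subunit, p67phox, wait in the cytosol, and on activation they join the core together with the GTPase Rac2. Superoxide dismutases turn superoxide into hydrogen peroxide, SOD1 in the cytosol and SOD2 in mitochondria, and catalase breaks the peroxide down. Loss of CYBB, CYBA, NCF1 or NCF4 function causes chronic granulomatous disease in people, and SOD2 is a well-known target of NF-κB. The arrays measure transcripts, and neither oxidase activity nor superoxide.

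NCF1 and SOD2 had higher signals with NTHi in both sublines, and NCF1 and CYBB were higher in Siglec-14/THP-1 than in Siglec-5/THP-1 in both conditions. CAT was lower in Siglec-14/THP-1 in both conditions. The signals of CYBA, NCF4, RAC2 and SOD1 differed by at most 1.33-fold in every pair of arrays on the probe set with the highest mean signal, which represents each gene unless another is named. Signals are linear intensities as deposited. The sum of all signals ran between 12735500 and 14047100 over the 4 arrays, and the log2 ratio of the sums was 0.13 for NTHi in Siglec-14/THP-1, -0.06 for NTHi in Siglec-5/THP-1, 0.06 between the lines with NTHi and -0.14 between the lines without it. Small ratios of single genes are read against these shifts. All 8 genes lay above the floor, set at the median of all signals (16.02), on all 4 arrays, and none of their ratios below is a bound unless it is so named.

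As a check of the samples, LYZ and CEBPA, which monocytic cells express, had signals of 3036 to 3430 and 1221 to 1292, while CD14 lay below the floor on all arrays. ITGAM, the integrin subunit CD11b of myeloid cells, had 353 and 290.1 in Siglec-14/THP-1 with and without NTHi, against 167 and 198 in Siglec-5/THP-1. It was 2.11-fold higher in Siglec-14/THP-1 with NTHi and 1.46-fold higher without, and was the 1 monocytic marker that passed for the line in the limma fit described below (line term 0.81, adjusted p = 3.54e-05). Of 7 matched monocytic markers 5 reached the floor on at least 1 array, and so did 8 of 17 matched markers of other cell types. Over all genes 13935 of 19776 did, so the monocytic count is near that of any gene. The summed signal of the monocytic markers was 4785 in Siglec-14,NTHi[+], 4841 in Siglec-14,NTHi[-], 4657 in Siglec-5,NTHi[+] and 4984 in Siglec-5,NTHi[-], and that of the other markers was 888, 863, 713 and 704 in the same order. LYZ and CEBPA make up most of the monocytic sum, which therefore does not show the difference in ITGAM. COL1A1, a collagen gene of fibroblasts, had the widest line difference in signal within the other sum. It had 257 and 266 in Siglec-14/THP-1 with and without NTHi against 132 and 141 in Siglec-5/THP-1 (line term 0.94, adjusted p = 2.73e-06 in limma). NKG7 had 363 and 292 against 247 and 240 (line term 0.42, adjusted p = 0.091 in limma), while PAX5 was lower in Siglec-14/THP-1 in both conditions. ITGAM and COL1A1 thus differed between the lines in the same direction as NCF1 and CYBB, and their part in those differences was not tested. The brightest markers of other cell types were NKG7, COL1A1 and PAX5, and whether these signals come from those transcripts was not tested. The probe set of SIGLEC5 had signals of 19.5, 21.3, 21.6 and 4.13 in that order, and thus did not mark the arrays labelled Siglec-5. The sources do not say whether it covers the introduced transcript, and SIGLEC14 was not matched by symbol, so the direction of every difference between the lines rests on the labels.

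**Figure D1:**
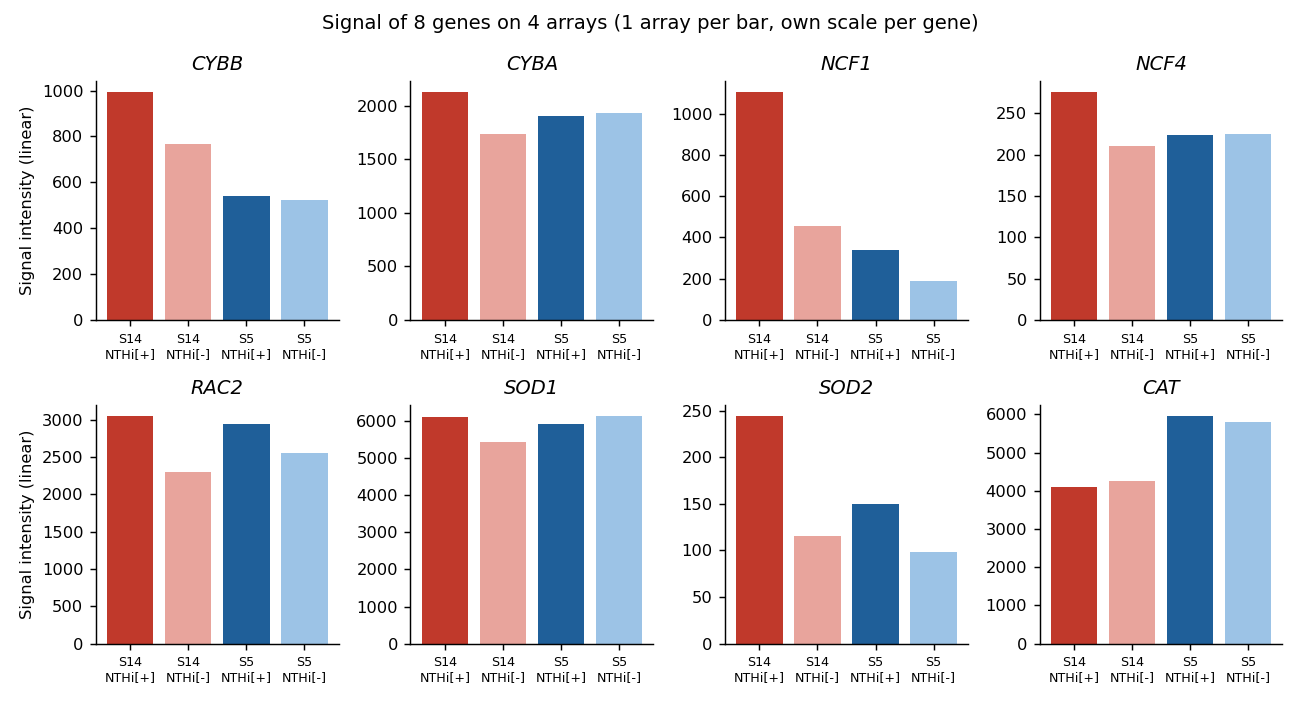
Signal intensity (linear, from 0, on a separate scale for each gene) of the 8 genes, with 1 bar for each array: Siglec-14/THP-1 (S14) in red and Siglec-5/THP-1 (S5) in blue, darker with NTHi. NCF1 has its highest bar in Siglec-14,NTHi[+], at 1103, and its lowest in Siglec-5,NTHi[-], at 188, and both bars of CAT are lower in Siglec-14/THP-1.

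For the genes that differed between the lines in the same direction, the stretch before the gene start is shown for the oxidase subunits NCF1 and CYBB, because both hold a core site for PU.1, an ETS factor of myeloid cells known to bind the promoters of both genes in human phagocytes. The sequences are the 200 bases before the start on the plus strand in GRCh38.p14, from RefSeq, 5′ to 3′, at chr7:74773811-74774010 for NCF1 and chrX:37779859-37780058 for CYBB. Capitals mark the PU.1 core, which is read here on the reverse strand.
NCF1: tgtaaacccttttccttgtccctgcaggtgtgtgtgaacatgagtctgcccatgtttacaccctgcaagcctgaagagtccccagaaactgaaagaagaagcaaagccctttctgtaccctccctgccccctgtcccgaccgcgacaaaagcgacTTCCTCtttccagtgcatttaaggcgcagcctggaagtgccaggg
CYBB: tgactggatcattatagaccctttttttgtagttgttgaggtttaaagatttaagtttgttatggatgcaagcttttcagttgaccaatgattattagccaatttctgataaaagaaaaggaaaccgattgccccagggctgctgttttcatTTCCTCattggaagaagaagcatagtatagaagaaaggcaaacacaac
The core GAGGAA, searched on both strands, began 45 bases before the start in NCF1 and 48 bases before it in CYBB. Windows of 250 bases before to 50 after the start were held for 5 of the 8 genes (CYBB, CYBA, NCF1, CAT and SOD2, the last with 4 starts), and 27.9% of 35116 such windows held the core. The windows of CYBA and CAT did not hold it, and 2 of the 4 windows of SOD2 did. The GC box GGGCGG lay in every window of CYBA, CAT and SOD2 and in neither that of NCF1 nor that of CYBB, against 45.0% of all windows. The letters CCAAT were found for CYBB and CAT and in 2 of the SOD2 windows, against 34.6% of all windows, and TATAAA in none of these genes, against 11.5%. None of these motifs overlapped the PU.1 core of NCF1 or CYBB. These matches describe the letters only. SPI1, the gene of PU.1, had 45.85 and 51.76 in Siglec-14/THP-1 with and without NTHi, against 41.67 and 45.94 in Siglec-5/THP-1. Its line term was 0.15 (adjusted p = 0.85) in the limma fit described below, and binding of PU.1 was not tested.

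CYBB, the catalytic subunit, had a signal of 991.8 in Siglec-14,NTHi[+] and 768 in Siglec-14,NTHi[-], against 541.5 in Siglec-5,NTHi[+] and 523 in Siglec-5,NTHi[-]. Both Siglec-14/THP-1 arrays lay above both Siglec-5/THP-1 arrays, by 1.83-fold with NTHi and 1.47-fold without. A dimmer probe set of CYBB had the same order of the lines, with 91.0 and 72.6 in Siglec-14/THP-1 with and without NTHi and 40.6 and 46.8 in Siglec-5/THP-1. With NTHi, CYBB was 1.29-fold higher in Siglec-14/THP-1 and 1.04-fold higher in Siglec-5/THP-1, and the dimmer probe set was 1.25-fold higher and 1.15-fold lower. The remaining 2 probe sets of CYBB lay below the floor on all arrays. CYBA, which holds gp91phox stable in the membrane, had 2123 in Siglec-14,NTHi[+], 1735 in Siglec-14,NTHi[-], 1899 in Siglec-5,NTHi[+] and 1930 in Siglec-5,NTHi[-]. Its level in Siglec-5/THP-1 lay between those of the Siglec-14/THP-1 arrays in both conditions, so CYBA did not separate the lines as CYBB did. A second, dim probe set of CYBA read differently: 33.9 with NTHi in Siglec-14/THP-1, at least 2.11-fold above its counterpart without NTHi, and 21.4 with NTHi in Siglec-5/THP-1, at least 1.34-fold above, with the signals without NTHi at 13.5 and 11.7.

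NCF1, the p47phox organizer whose phosphorylation starts assembly, showed the widest differences of the 8 genes. Its signal was 1103 in Siglec-14,NTHi[+] and 456 in Siglec-14,NTHi[-], 2.42-fold higher with NTHi. In Siglec-5/THP-1 it was 341 with NTHi and 188 without, 1.81-fold higher. Between the lines it was 3.23-fold higher in Siglec-14/THP-1 with NTHi and 2.42-fold higher without, so that nonstimulated Siglec-14/THP-1 had a higher signal than stimulated Siglec-5/THP-1. NCF1 has nearly identical partial copies, NCF1B and NCF1C, and the annotation gives its other probe set to all 3 genes. That probe set had 884 and 415 in Siglec-14/THP-1 with and without NTHi, against 355 and 183 in Siglec-5/THP-1, which are folds of 2.13 and 1.94 with NTHi, and of 2.49 and 2.26 between the lines with and without it. The order of the 4 arrays was the same on both probe sets, and the share of the copies in either signal cannot be told from these values. Among genes with a signal of at least 105, the 75th percentile of all signals, on at least 1 array of the pair, the NTHi ratio of NCF1 ranked 28 of 8074 in Siglec-14/THP-1 and 51 of 7937 in Siglec-5/THP-1. Its line ratio ranked 116 of 8133 with NTHi and 138 of 8110 without.

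NCF4, the p40phox subunit that binds phosphatidylinositol 3-phosphate on phagosomes, had 275.5 in Siglec-14,NTHi[+] and 210 in Siglec-14,NTHi[-], and 224 and 225 in Siglec-5/THP-1 with and without NTHi. Its second probe set had 256 and 218 against 225 and 206. Siglec-14,NTHi[+] was the highest of the 4 arrays on both, while the rank of the other arrays changed with the probe set. RAC2, the blood-cell Rac GTPase that activates the oxidase, had 3050 and 2301 in Siglec-14/THP-1 with and without NTHi and 2951 and 2551 in Siglec-5/THP-1. It was 1.33-fold higher with NTHi in Siglec-14/THP-1 and 1.16-fold higher in Siglec-5/THP-1, and 1.39-fold and 1.29-fold higher on its dimmer probe set. On both probe sets of RAC2 the stimulated samples lay above the nonstimulated samples of either line.

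**Figure D2:**
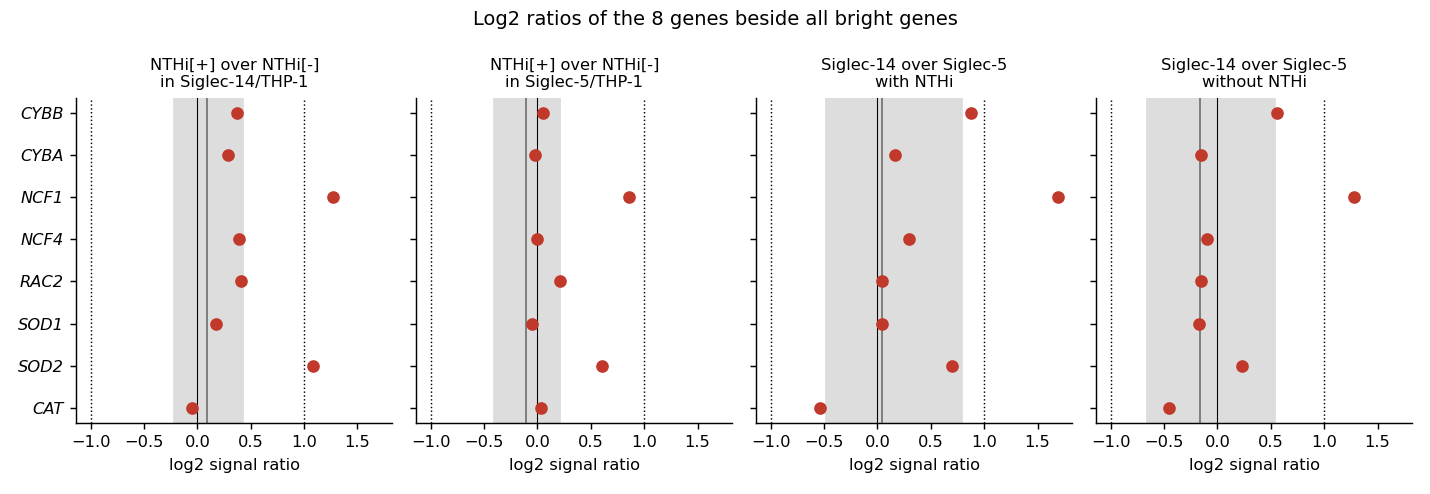
Log2 signal ratio of each of the 8 genes (points) in the 4 pairs of arrays named above the panels. The grey band spans the 5th to the 95th percentile of genes with a signal of at least 105 on at least 1 array of the pair, the grey line is their median, and the dotted lines mark a 2-fold ratio. NCF1 lies right of the band in all 4 panels, SOD2 in both NTHi panels and CYBB in both line panels, and CAT lies left of it between the lines with NTHi.

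SOD2, the manganese enzyme of mitochondria, had a signal of 244 in Siglec-14,NTHi[+] and 115.5 in Siglec-14,NTHi[-], and of 150.1 in Siglec-5,NTHi[+] and 98.6 in Siglec-5,NTHi[-]. It was 2.11-fold higher with NTHi in Siglec-14/THP-1 and 1.52-fold higher in Siglec-5/THP-1, ranks 42 of 8074 and 90 of 7937. Between the lines SOD2 was 1.63-fold higher in Siglec-14/THP-1 with NTHi and 1.17-fold higher without. This probe set is the only one listed for SOD2 alone. The annotation lists 4 more for SOD2 and SOD2-OT1, a noncoding gene at the same locus, and their signals cannot be divided between the genes here. The brightest of these had 1495 and 602 in Siglec-14/THP-1 with and without NTHi and 775.5 and 388 in Siglec-5/THP-1, which is 2.48-fold and 2.00-fold higher with NTHi. The one with the highest folds among the 3 bright ones was 3.84-fold and 2.58-fold higher with NTHi (461 and 120.2 in Siglec-14/THP-1, 333 and 129 in Siglec-5/THP-1), and the remaining bright one 1.84-fold and 1.20-fold. On the dim one both signals without NTHi, and that of Siglec-5,NTHi[+], lay below the floor, and the ratio in Siglec-14/THP-1 was at least 1.75. All 5 probe sets had a higher signal with NTHi in both lines, with folds that differed from one to the next. For the dim one in Siglec-5/THP-1 this is an order of signals below the floor and no usable ratio. On the line difference without NTHi they were divided: the probe set with the highest folds was 1.07-fold lower in Siglec-14/THP-1, while the brightest was 1.55-fold higher.

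**Figure D3:**
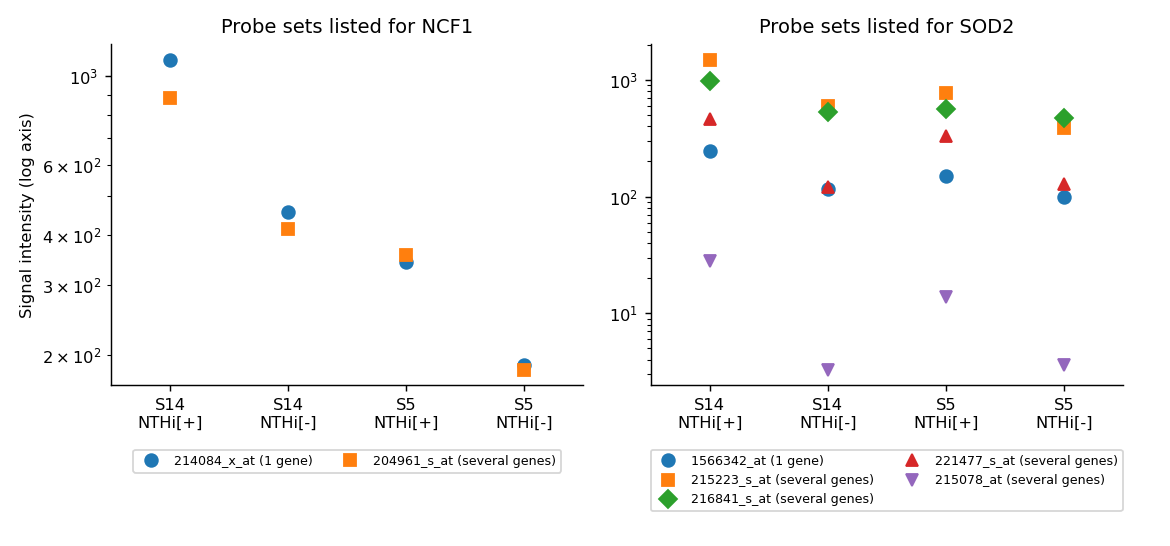
Signal intensity (log axis) of the 2 probe sets listed for NCF1 (left) and of the 5 listed for SOD2 (right) on the 4 arrays, with S14 for Siglec-14/THP-1 and S5 for Siglec-5/THP-1. Blue circles are the probe sets listed for only 1 gene. Each probe set is higher with NTHi than without in both lines, and the NCF1 probe sets fall in the same order of arrays. The dimmest SOD2 probe set lies below the floor on both S5 arrays.

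SOD1, the copper and zinc enzyme of the cytosol, had 6114 and 5423 in Siglec-14/THP-1 with and without NTHi and 5921 and 6130 in Siglec-5/THP-1, on its single probe set. Its log2 ratios, of which the widest were 0.17 for NTHi in Siglec-14/THP-1 and -0.18 between the lines without NTHi, lay near those of the array sums, 0.13 and -0.14. The higher signals with NTHi seen for SOD2 in both lines were not seen for SOD1. CAT, the peroxisomal enzyme that splits hydrogen peroxide, had 4093 and 4247 in Siglec-14/THP-1 with and without NTHi and 5953 and 5809 in Siglec-5/THP-1. Both Siglec-14/THP-1 arrays lay below both Siglec-5/THP-1 arrays, by 1.45-fold with NTHi and 1.37-fold without, while the stimulated and nonstimulated samples of a line differed by at most 1.04-fold. A second probe set of CAT had the same order of the lines, with 1091 and 1120 in Siglec-14/THP-1 against 1761 and 1968 in Siglec-5/THP-1, and was 1.61-fold and 1.76-fold lower. The remaining, dim probe set reached the floor on 1 array only, Siglec-14,NTHi[-].

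Counted at 2-fold, 2 of the 8 genes, NCF1 and SOD2, were higher with NTHi in Siglec-14/THP-1, where 3.5% of 13210 genes with a signal at or above the floor were, and 0.669% of those with at least 105. In Siglec-5/THP-1, 0 of 8 were 2-fold higher with NTHi, against 3.19% and 0.479% of genes. Between the lines, NCF1 alone was 2-fold higher in Siglec-14/THP-1 with NTHi, against 7.63% and 3.44% of genes, and without NTHi, against 6.23% and 2.31%. SOD2 was 1.93-fold higher with NTHi in Siglec-14/THP-1 when the arrays were scaled to the same sum, which ends its 2-fold call. None of the 8 was 2-fold lower in any pair, and in each pair fewer than 5% of genes with a signal of at least 105 were. At the 3-fold threshold of the study's screen, only NCF1 between the stimulated lines was counted, where its ratio ranked 116 of 8133 such genes. When the arrays were scaled to the same median its ratio was 2.99-fold, below that threshold. These counts rest on 1 probe set per gene. The bright probe sets shared by SOD2 and SOD2-OT1 were 2.48-fold, 3.84-fold and 1.84-fold higher with NTHi in Siglec-14/THP-1. In Siglec-5/THP-1 the same probe sets were 2.00-fold, 2.58-fold and 1.20-fold higher. The probe set shared by NCF1 and its copies was 2.49-fold higher in Siglec-14/THP-1 between the stimulated lines. The median log2 ratio of the 8 genes was 0.38 for NTHi in Siglec-14/THP-1 beside 0.10 over genes with a signal of at least 105, and 0.04 beside -0.11 in Siglec-5/THP-1. Between the lines it was 0.23 beside 0.04 with NTHi and -0.12 beside -0.17 without, where the median of the 8 genes turned to 0.04 with quantile normalization and 0.02 with arrays scaled to the same sum. The SD of the log2 ratios over those genes was 0.23 for NTHi in Siglec-14/THP-1, 0.27 for NTHi in Siglec-5/THP-1, and 0.54 and 0.52 between the lines with and without NTHi.

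The log2 response to NTHi in Siglec-14/THP-1 minus that in Siglec-5/THP-1 was 0.41 for NCF1 and 0.47 for SOD2. Over 8300 genes with a signal of at least 105 on any array the same difference had a median of 0.20 and an SD of 0.26, so both values lay above the median by no more than about that SD. With 1 array per condition, whether the lines responded differently could not be tested.

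A limma fit over the 4 arrays, additive in NTHi and cell line, tests a difference shared by both lines or by both conditions. In this fit 2 of the 8 genes rose with NTHi, against 0.99% of 13935 genes, and 0 fell, against 0.294%. NCF1 rose by a log2 difference of 1.07 (standard error 0.15, adjusted p = 3.73e-09) and SOD2 by 0.84 (standard error 0.18, adjusted p = 0.00087). For the line term, 2 genes were higher in Siglec-14/THP-1, against 6.24% of genes, and 1 was lower, against 4.95%. NCF1 was higher by 1.48 (standard error 0.15, adjusted p = 2.22e-19) and CYBB by 0.71 (standard error 0.15, adjusted p = 9.70e-05). CAT had a line term of -0.50 (standard error 0.17, adjusted p = 0.045) on its brightest probe set, a call that was lost when all probe sets were fitted (adjusted p = 0.14), and of -0.75 on the second (adjusted p = 3.99e-05). SOD2 had a line term of 0.46 (standard error 0.18, adjusted p = 0.096) on the probe set listed for it alone. Among those shared with SOD2-OT1, the brightest had 0.79 (adjusted p = 9.19e-06) and the one with the lowest NTHi folds 0.49 (adjusted p = 0.018). The bright one with the highest NTHi folds had 0.18 (adjusted p = 0.64) and the dim one 0.44 (adjusted p = 0.91). The line call for SOD2 thus depends on the probe set. CYBA, NCF4, RAC2 and SOD1 passed for neither term, although RAC2 passed for NTHi (adjusted p = 0.0069) when the arrays were scaled to the same median. The 1 residual degree of freedom per probe set is the difference between the lines in their response to NTHi. The fit thus holds no spread between replicates, and its p-values do not measure one. Its standard errors are those of the trend of variance with intensity. They depend on scaling: for SOD1 the standard error was 0.175 in this fit and 0.035 with quantile normalization. Without the intensity trend 0 of the 8 genes passed for either term, with 2 at an unadjusted p under 0.05 for each. In that fit 0 of all 31981 probe sets passed for either term, so this loss is not particular to the 8 genes. With cell line left out of the fit, 0 of the 8 genes and 0 of all 31981 probe sets passed for NTHi.

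**Figure D4:**
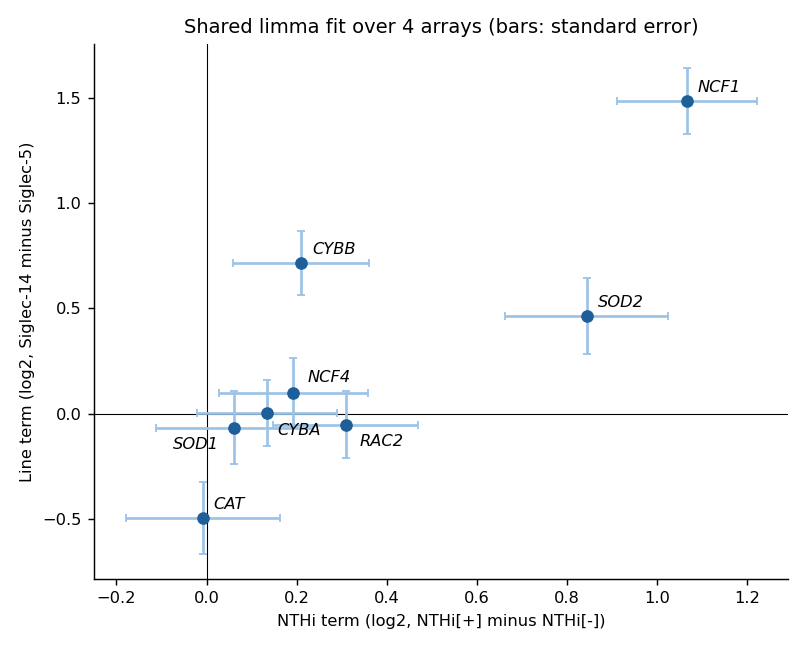
Terms of the shared limma fit for the 8 genes, with the NTHi term (log2, NTHi[+] minus NTHi[-]) on the x axis and the line term (log2, Siglec-14 minus Siglec-5) on the y axis. Bars are standard errors from the intensity trend. NCF1 stands apart on both axes, SOD2 on the x axis, and CYBB above and CAT below 0 on the y axis. SOD2 also lies above 0 on the y axis (0.46), and RAC2 right of 0 on the x axis (0.31). CYBA, NCF4 and SOD1 lie near 0 on both.

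Of 8 matched genes for other parts and partners of the phagocyte oxidase (RAC1, RAP1A, CYBC1, HVCN1, VAV1, PRKCD, PRKCB and PIK3CG), 0 were 2-fold different in any pair, 0 passed for NTHi and 1 passed for the line. That gene, named for having passed, was PRKCD, a kinase that phosphorylates p47phox, with 466 and 370 in Siglec-14/THP-1 with and without NTHi against 289 and 209 in Siglec-5/THP-1 (line term 0.75, adjusted p = 8.34e-05 in limma). Over all 13935 genes fitted, 6.24% passed as higher in Siglec-14/THP-1 and 4.95% as lower, so 1 of 8 is near the share of any genes. Of 9 matched genes for other NADPH oxidases and their partners, 6 lay below the floor on all arrays, among them NOX3 and NOX4, and none reached 105. Of 19 matched peroxide-removing enzymes, glutathione peroxidases, peroxiredoxins and thioredoxins among them, 18 reached the floor, and 0 were 2-fold different in any pair or passed for either term. Their median log2 ratio was 0.13 for NTHi in Siglec-14/THP-1 and -0.06 in Siglec-5/THP-1, and 0.03 and -0.16 between the lines with and without NTHi. SOD3, the secreted dismutase, and CCS, which loads copper into SOD1, passed for neither term. Among 7 matched users and other sources of these oxidants, MPO, which turns hydrogen peroxide into hypochlorous acid in granules, was lower in Siglec-14/THP-1, with 1365 and 1152 with and without NTHi against 2186 and 2408 in Siglec-5/THP-1 (line term -0.87, adjusted p = 1.11e-06 in limma). LPO, a secreted peroxidase, was dim, with 29.8 in Siglec-14,NTHi[+] and 23.9 in Siglec-5,NTHi[+], at least 1.86-fold and 1.49-fold above signals without NTHi that lay below the floor, and it passed for neither term.

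The genes with the pattern most like each of NCF1 and SOD2 were taken as the 3 with the smallest root mean square difference in centred log2 signal over the 4 arrays, among 11031 genes with no array below the floor. For NCF1 these were EHD1 (0.11), STX11 (0.17) and CD83 (0.20). EHD1, an endocytic recycling ATPase, had 634 and 302 in Siglec-14/THP-1 with and without NTHi and 231 and 132 in Siglec-5/THP-1, and CD83, a marker of activated antigen-presenting cells, had 1251 and 719.8 against 551 and 258. For SOD2 they were SAXO5 (0.09), RNF144B (0.10) and REL (0.10). REL, the NF-κB subunit c-Rel, had 520 and 254 in Siglec-14/THP-1 and 386 and 233 in Siglec-5/THP-1, while SAXO5 and RNF144B had signals of at most 57.3. With 4 arrays, many genes can share such an order, and the likeness is a description.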

How the data were processed

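Total RNA (250 ng) of each of 4 cell samples was hybridized to 1 U133 Plus 2.0 GeneChip. Signals were read by the authors in GCOS (version not given in the sources used here) and, by the methods, standardized on cumulative intensity. The deposited values are signal intensities on a linear scale, whose sums differ between arrays, and whether they carry that step is not known. They were used without further scaling, with 0 columns left unmapped. Probe sets were named by the platform's annotation: 41092 for 1 gene, 1800 for several and 11721 for none, beside 62 control probe sets, which were left out of ratios and tests. The median of all signals, 16.02, served as a floor and the 75th percentile, 105, as a second. A gene was represented by its probe set with the highest mean signal.

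Ratios of single arrays have no test, and the number of arrays limits the precision. limma 3.58.1 (R 4.3.3) was fitted to the log2 signals of 31981 probe sets that reached the floor on any array, additive in NTHi and cell line, with an intensity trend (prior degrees of freedom infinite); p-values were adjusted by Benjamini-Hochberg over all of them, and 0.05 was the threshold. The fit was also run on simulated data with independent errors drawn from its own variance trend, which cannot test that trend. Alternatives were median, sum and quantile scaling, a pseudocount of 16, other floors, probe sets and thresholds, and fits without the trend, without the other factor or with all probe sets. Named genes were the members, list genes 2-fold different with a signal of at least 105, the 3 genes nearest to each member that was 2-fold different, and SIGLEC5. PRKCD, LPO, COL1A1, SPI1 and genes named as list members were named after their values were seen. The members, lists and motifs were chosen with earlier results of these data known. Promoter sequences are from RefSeq (GRCh38.p14); PAK1, DUOXA1, PRDX5 and the gene of p67phox were not matched by symbol and are not analysed here. Python 3.11.15, numpy 2.4.6, pandas 2.3.3 and matplotlib 3.10.9 were used for the rest.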

Additional observations from a re-analysis of the deposited data

Results flagged for a closer look

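For 4 of the 8 genes the NTHi ratio was above 1 in one line and below 1 in the other. The share of all genes with such opposite ratios was not counted. Over genes with a signal of at least 105, the median log2 ratio was itself 0.10 in Siglec-14/THP-1 and -0.11 in Siglec-5/THP-1. The count is therefore not read as a trait of these genes. The log2 ratio in Siglec-14/THP-1 minus that in Siglec-5/THP-1 was 0.31 for CYBA, 0.40 for NCF4, 0.22 for SOD1 and -0.088 for CAT. Each rests on 1 array per condition, so the difference between the lines was not tested. The same difference had a median of 0.20 over 8300 genes with a signal of at least 105, and in Siglec-5/THP-1 the sign of the ratio of all 4 genes changed with the processing.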

How the results depend on the processing

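The count of genes at least 2-fold different with NTHi in Siglec-14/THP-1 was 1 (NCF1, without SOD2) when each array was scaled to the same sum or when a pseudocount of 16 was added, and 0 at 3-fold. In Siglec-5/THP-1 it was 2 at 1.5-fold, NCF1 and SOD2. Between the lines with NTHi it was 2 with the median over a gene's probe sets, where CYBB joined NCF1, and 3 at 1.5-fold, and between the lines without NTHi it was 0 at 3-fold. The shares of all genes at 1.5-fold and 3-fold were not counted, so these counts have nothing beside them. In the limma fit, the count passing for NTHi was 0 without the intensity trend and 0 with cell line left out, and for the line it was 0 without the trend. In each of these 0 of all 31981 probe sets passed, so these zeros are not particular to the 8 genes. RAC2 passed for NTHi, with adjusted p = 0.0069 and 0.0013, when arrays were scaled to the same median or quantile-normalized, which made 3 genes, and SOD2 passed for the line (adjusted p = 0.031) with quantile normalization, which made 4. With all probe sets fitted, CAT was lost and 2 genes passed for the line. The other 64 counts and medians stayed within 1.5 times of the main count, or moved by less than the SD over bright genes for a median, and of 224 values for single genes 222 moved by less than that SD. Both totals include values that could not move. These are all values under the other floors, which every gene passed in every pair, and the median over probe sets for genes with 1 probe set. The totals thus overstate the stability. The median over the 8 genes between the lines without NTHi changed sign, to 0.04 with quantile normalization and 0.02 with sum scaling. The exceptions were CYBA for NTHi, with log2 ratios of 0.81 in Siglec-14/THP-1 and 0.42 in Siglec-5/THP-1 when the median was taken over its probe sets, the dim one included. Over the alternatives of scaling, no ratio of NCF1, SOD2 or CYBB changed direction. The pseudocount and the other floors do not bear on direction. The first cannot reverse a ratio, and the floors left every ratio as it was. With the median over probe sets the ratio of CYBB for NTHi in Siglec-5/THP-1 changed direction. SOD2 and NCF1 have 1 probe set each in that alternative, which does not bear on them. NCF1 ranged between 2.20-fold and 2.45-fold for NTHi in Siglec-14/THP-1 and between 1.75-fold and 1.94-fold in Siglec-5/THP-1, and between the lines with NTHi between 2.99-fold and 3.23-fold, on both sides of 3-fold. With each condition on 1 array, no replicate could be left out and there are no replicate numbers to pair. The limma fit compares NTHi within each line, and its NTHi calls are those lost with cell line left out.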
